A study of Canis lupus familiaris with 34 samples.

Results

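Osteosarcomas of dogs that held much RNA of 2 T cell genes were compared with osteosarcomas that held little of it. CD2, an adhesion receptor of T cells and natural killer cells, and ZAP70, a kinase that binds the activated T cell receptor, formed the score, which is the mean of their log2(FPKM + 1). FPKM counts sequenced fragments relative to the length of a transcript and to the fragments of the whole library. Tumours were chosen by this measured score. The 9 primary tumours with the highest score are called T cell rich here and the 9 with the lowest score T cell poor. These 18 tumours come from 28 primary tumours in a series of 34 libraries, and the other 10 tumours lie between the groups.

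The series also holds 1 metastasis, 2 cell lines grown from earlier primary tumours (OSCA.78 and OSCA.8) and 1 osteoblast culture (CNOB), and these 3 cultures serve here as a background. Every tumour of both groups is labelled as bone tumour of a Golden Retriever, although the series' design text also names Rottweilers. No treatment, age or sex was used, and the labels do not say which samples come from separate dogs, so the p-values below measure the spread between samples, which may in part be technical. Libraries DOS.46 and DOS.46.2, and DOS.100 and DOS.32, were averaged and entered as 1 tumour each. The deviations of DOS.100 and DOS.32 from the mean of all tumours correlated at r = 0.843 across 14912 genes, and those of DOS.46 and DOS.46.2 at r = 0.730. Further pairs stood out from the median of all pairs (r = -0.0391) and were kept apart by the rule. They are DOS.110 with DOS.115 (r = 0.671, both between the groups) and DOS.56 with DOS.57 (r = 0.468, both T cell rich).

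A T cell recognises antigen through a receptor of paired alpha and beta, or gamma and delta, chains, which signals through the CD3 proteins. The kinase LCK then phosphorylates the CD3 chains, ZAP70 docks on them, and adaptor proteins carry the signal on. Cytotoxic T cells, and natural killer cells, kill their targets with granzymes. Interferon gamma from these cells induces antigen presentation genes and the tryptophan-degrading enzyme IDO1 in neighbouring cells, while receptors such as PD-1 restrain T cells that have been stimulated for long.

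The score set the groups, so the following values describe them and carry no test. CD2 lay between 3.74 and 11.1 FPKM in the T cell rich tumours (median 8.57), between 1.51 and 5.15 in the 10 tumours between the groups (median 2.49), and between 0.404 and 1.42 in the T cell poor tumours (median 0.750). ZAP70 spanned 0.648 to 9.48 FPKM (median 3.21) in the T cell rich tumours and 0.112 to 1.63 (median 0.424) in the T cell poor ones, so that the groups separate on CD2 and overlap on ZAP70. DOS.70 belongs to the T cell rich tumours through CD2 (10.3 FPKM) with the lowest ZAP70 of that group (0.648 FPKM). DOS.100 has the reverse pattern among the T cell poor tumours, with 0.404 FPKM of CD2 and 1.63 FPKM of ZAP70. At the upper border DOS.90 scored 1.85 and DOS.112, just outside, 1.76. At the lower border DOS.84 scored 0.943 and DOS.78, just outside, 1.18. In the 3 cultures CD2 was at 0, 0.00902 and 0.0173 FPKM and ZAP70 at 0.0137, 0.0729 and 0.140 FPKM.

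**Figure D1:**
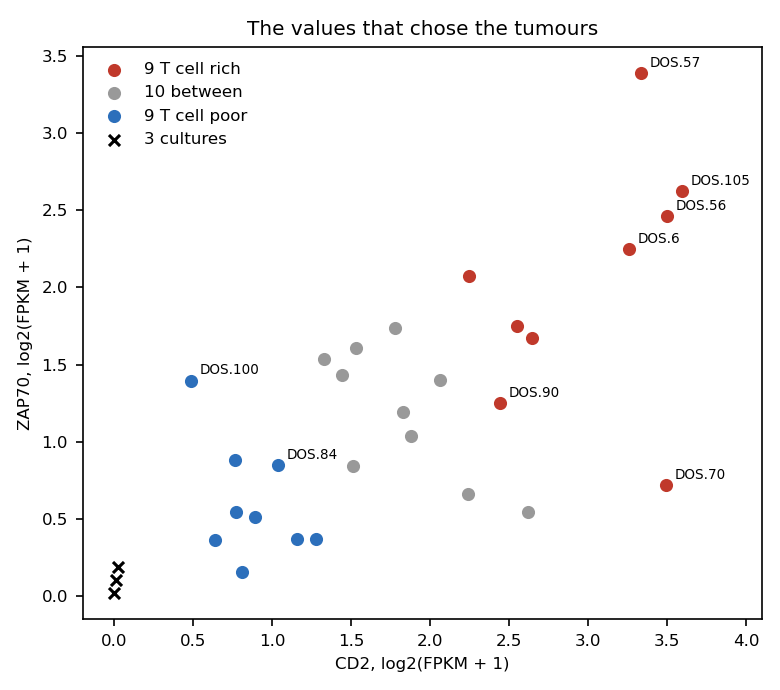
Log2(FPKM + 1) of CD2 (x axis) against ZAP70 (y axis); each point is 1 tumour, coloured by group, and crosses are the 3 cultures. The T cell rich and poor tumours do not overlap on CD2, DOS.70 is rich mainly through CD2, and the cultures sit near 0 on both axes.

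Library measures that touch low values differed in part. The number of genes above 0 was similar (median 16967 in T cell rich and 17107 in T cell poor tumours), and the summed FPKM ranged from 479053 to 837067 and from 550935 to 797647. Read depth is unknown. The FPKM that 1 fragment is worth, taken from the steps between low values and set relative to the median library, ranged from 0.862 to 1.02 (median 0.956) in T cell rich tumours and from 0.844 to 2.05 (median 1.06) in T cell poor tumours. A larger value means fewer fragments, and its part in the differences below was tested only as a covariate. DOS.113 (2.05), DOS.28 (1.35) and DOS.75 (1.24), all T cell poor, had the largest values of the 18. Since bulk tumour RNA was measured, fewer cells of a type and less RNA per cell cannot be told apart.

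Across the 14910 genes tested (at least 1 FPKM in at least 2 of the 28 tumours, CD2 and ZAP70 left out), 102 were higher in T cell rich tumours, which is 0.684% of them, and none was lower (0%). The test was limma's moderated comparison of log2(FPKM + 1), two-sided, with Benjamini-Hochberg adjustment over all genes and a threshold of 0.05. At an unadjusted p below 0.05, 580 genes were higher and 247 lower. A positive fold change was seen in 50.5% of all genes tested. The log2 fold changes of the 102 ran from 0.56 to 4.04 with a median of 1.43, beside a median of 0.00386 over all genes tested. In 33 genes (0.221%) every T cell rich tumour lay above every T cell poor tumour, and 31 of these are among the 102. No gene had all T cell rich tumours below all T cell poor ones. A called gene is one whose RNA differed between groups set by the mean of CD2 and ZAP70 in the same libraries. It need not have varied with each of these genes alone.

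The 102 genes were of low abundance and mostly below 1 FPKM in cultured bone cells. Their mean level over the 28 tumours had a median of 2.53 FPKM, against 10.3 FPKM for all genes tested. In the 3 cultures 78 of the 102 stayed below 1 FPKM (76.5%), against 1933 of 14910 (12.96%). In 36 of the 102 no T cell poor tumour reached 1 FPKM, and 16 passed the filter on low values only through the T cell rich tumours, as did 332 of all genes tested. A gene symbol was given for 61 of the 102, and 29 of these 61 belong to a gene list used below. The remaining 41 rows carry no symbol. The largest change of all genes was on such a row, ENSCAFG00000008584, singled out after its values were seen, with a log2 fold change of 4.04 ± 0.56 (SE; adjusted limma p 0.00105).

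The number of calls depended on single tumours and on settings. It was 61 without DOS.116, 61 without DOS.75, 66 without DOS.100, 67 without DOS.105 and 67 without DOS.56. With the relative depth of each library as a covariate 24 genes were called, 11 of them with a symbol (TRAC, GIMAP7, GIMAP4, SASH3, IRF8, TBC1D10C, CIITA, TRBV15, CD74, GBP5 and CD5), and the calls of the other 50 symbol genes ended. The median log2 fold change of the 102 was 1.35 in that fit, against 1.43 without the covariate. Without DOS.113 and DOS.28, 45 genes were called. With the macrophage level as a covariate 25 were called, 15 of them with a symbol (TRAC, GIMAP7, GIMAP4, CD53, TBC1D10C, IRF8, TRBV15, GZMA, CD3G, CD74, CD5, CIITA, CD27, SASH3 and GZMB), and the median of the 102 was 1.21. With groups formed by CD2 alone 43 genes were called, and with groups formed by ZAP70 alone 1, CD27. Setting the 14 highest against the 14 lowest tumours gave 17. In each of these fits all 102 genes kept a positive fold change. They were chosen for that direction in tumours that these fits largely share, so the kept sign is no independent test.

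**Figure D2:**
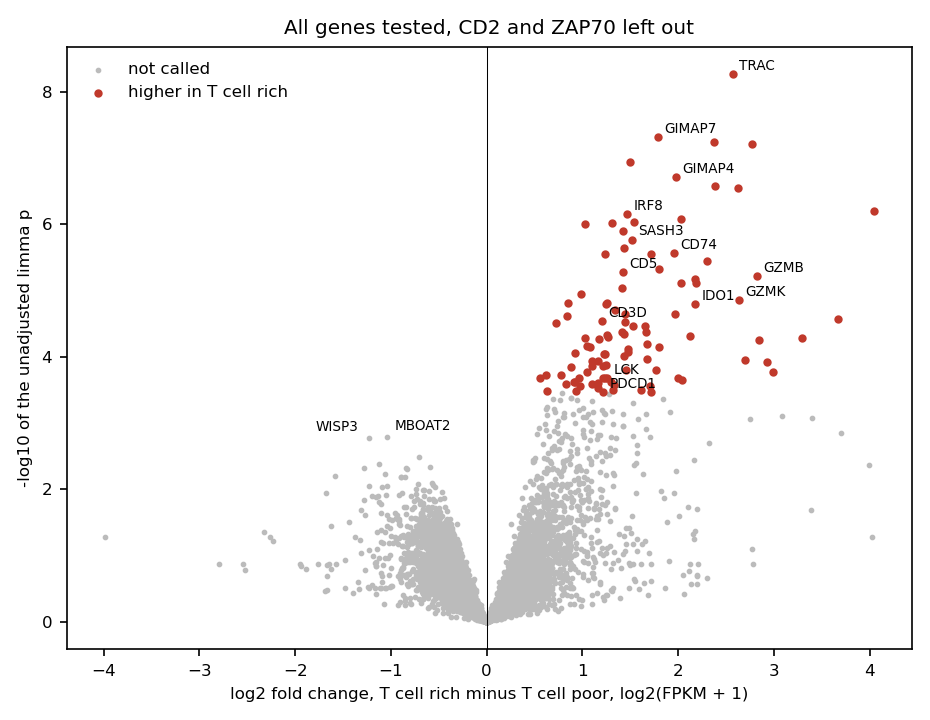
Log2 fold change of each gene tested (x axis, T cell rich minus T cell poor) against -log10 of the unadjusted limma p (y axis). The 102 red points, called at an adjusted p below 0.05, all lie to the right of 0; MBOAT2 and WISP3, with the smallest p among genes with a lower mean, are grey.

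The alpha chain of the T cell receptor gave the smallest p of all genes tested. TRAC, its constant region, lay between 5.22 and 27.6 FPKM in the T cell rich tumours (median 13.1), between 1.20 and 9.03 in the tumours between the groups (median 3.68), and between 0.799 and 2.78 in the T cell poor tumours (median 1.13). The T cell rich and poor tumours did not overlap. TRAC rose by a log2 fold change of 2.57 ± 0.27 (SE, n = 9 and 9; adjusted limma p 8.08e-05). Of 16 rows named for a receptor chain, 8 passed the filter and 4 were called, beside 0.684% of all genes tested. Variable segments of the beta chain made up the other calls, TRBV15 (log2 fold change 1.43, adjusted limma p 0.00197), TRBV16 (1.80, 0.0186) and TRBV24-1 (1.18, 0.0150), which passed the filter only through the T cell rich tumours. TRBV15 was at a median of 1.28 FPKM in the T cell rich and 0 in the T cell poor tumours. Variable segments of the alpha and delta chains were not called. They were TRAV24 (0.46, adjusted limma p 0.581), TRDV2 (0.11, 0.990) and TRAV34 (-0.14, 0.981). Variable segments resemble each other, so their reads may be split between rows in a way that is not known here.

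TRDC, the constant region of the delta chain carried by gamma delta T cells, did not pass. It lay between 1.37 and 28.7 FPKM in the T cell rich tumours (median 5.85) and between 2.26 and 26.6 in the T cell poor tumours (median 5.97). The groups overlapped, with 1 T cell rich tumour above and 3 below the range of the T cell poor ones, and the log2 fold change was -0.28 ± 0.47 (adjusted limma p 0.981). Its median in the T cell poor tumours was above that of TRAC, 1.13 FPKM. The genes TRAC and TRDC lie within 1 locus, and how their reads were kept apart is not stated in the labels.

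Other T cell surface genes rose with them. Of the 13 receptor and surface proteins in the table, 11 were tested and 7 were called higher (CD5, CD27, CD3D, CD96, CD3G, CD7 and SLAMF6), none lower. The share called higher over all genes tested was 0.684%. The list's own members were picked with earlier results of these data known, so the count describes them only. CD27, CD3D, CD96 and SLAMF6 passed the filter on low values only through the T cell rich tumours, and among the 6 members that did not, 3 were called. CD3D, a signalling chain of the receptor complex, lay between 0.372 and 4.83 FPKM in the T cell rich tumours (median 1.47) and between 0 and 0.475 in the T cell poor ones (median 0.128). The groups overlapped through 1 T cell poor tumour, DOS.113, and the log2 fold change was 1.21 ± 0.23 (adjusted limma p 0.0108). CD3G, a second chain, ranged from 0.854 to 9.02 FPKM against 0.0297 to 2.94 (1.47 ± 0.30, adjusted limma p 0.0207), and its call ended without DOS.75 (adjusted limma p 0.0524).

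CD5, which dampens receptor signals, separated the groups fully. Its T cell rich tumours lay between 1.34 and 7.66 FPKM (median 1.998) and its T cell poor tumours between 0.0965 and 0.751 (median 0.347), a log2 fold change of 1.42 ± 0.23 (adjusted limma p 0.00336). CD27, a costimulatory receptor, had medians of 1.71 and 0.0877 FPKM (1.26 ± 0.22, adjusted limma p 0.00694). CD96, a receptor of T and natural killer cells, had medians of 1.10 and 0.132 FPKM (1.03 ± 0.20, adjusted limma p 0.0150). CD7 (1.30 ± 0.29, adjusted limma p 0.0405) and SLAMF6 (0.83 ± 0.19, adjusted limma p 0.0415) passed more narrowly.

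Not every T cell surface gene passed. CD8B, the beta chain of the CD8 co-receptor of cytotoxic T cells, lay between 1.80 and 24.4 FPKM in the T cell rich tumours (median 4.65) and between 1.28 and 27.5 in the T cell poor ones (median 3.62), and its log2 fold change was 0.41 ± 0.45 (adjusted limma p 0.977). At least 1 tumour of each group was thus above 24 FPKM for CD8B. CD6 (0.97, adjusted limma p 0.0809), LY9 (0.88, 0.146) and CD226 (0.38, 0.850) also stayed above the threshold. CD3E, CD4, CD8A, CD28 and ICOS could not be looked up by symbol and were not analysed here.

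In a wider list of T cell signalling genes, not all of which carry the receptor's signal, 19 of 23 in the table were tested. Of these 4 were called (GIMAP7, SH2D2A, LCK and SH2D1A), beside 0.684% of all genes. GIMAP7, a GTPase of lymphocytes, ranged from 1.86 to 7.43 FPKM in the T cell rich tumours (median 4.07), from 0.538 to 2.62 between the groups, and from 0.162 to 0.986 in the T cell poor tumours (median 0.398). The rich and poor tumours did not overlap, and the log2 fold change was 1.79 ± 0.21 (adjusted limma p 2.30e-04). LCK, the kinase that starts receptor signalling, ranged from 1.18 to 11.3 FPKM (median 3.87) against 0.294 to 2.26 (median 1.24). Its groups overlapped, and its log2 fold change was 1.26 ± 0.28 (adjusted limma p 0.0372). The adaptor SH2D1A (SAP), which works below receptors of the SLAM family, had medians of 1.62 and 0.0647 FPKM without overlap (1.33 ± 0.30, adjusted limma p 0.0428). SH2D2A, an adaptor that binds LCK, had medians of 1.03 and 0.146 FPKM (0.92 ± 0.19, adjusted limma p 0.0214). LAT (1.34, adjusted limma p 0.203), SIT1 (0.89, 0.0592) and FYB (0.94, 0.0614) did not pass, although their medians were also above those of the T cell poor tumours.

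In the 3 T cell lists together 11 of 43 tested members were called higher, beside 0.684% of all genes. Of the 11, 5 (CD27, CD3D, CD96, SLAMF6 and SH2D1A) had passed the filter only through the T cell rich tumours and so entered through the group where they are high. Of the 37 members that did not depend on those tumours 6 were called (CD5, CD3G, CD7, GIMAP7, LCK and SH2D2A). The count of 11 over the 3 lists fell to 5 without DOS.75 and to 6 without DOS.116. It fell to 7 without any 1 of DOS.56, DOS.6, DOS.111, DOS.100, DOS.37, DOS.28 and DOS.76. It was 4 without both DOS.113 and DOS.28, 4 with the macrophage covariate and 2 with the depth covariate. Fold changes stayed close to those of the report for CD5 (log2 1.47 with the macrophage and 1.34 with the depth covariate) and LCK (1.399 and 1.10), although LCK was no longer called in either. The leave-one-out fits ended the call of CD7 in 13 of 18, of LCK, SLAMF6 and SH2D1A in 14 each and of SH2D2A in 2 (without DOS.116 and without DOS.75). The highest adjusted limma p among these was 0.0953.

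None of the 13 tested transcription factors of T cells was called in either direction, 7 had a positive fold change, and the median was 0.13. At an unadjusted limma p below 0.05, 2 were higher and 0 lower, beside 580 and 247 of all 14910 genes. The smallest adjusted limma p was 0.400, for IKZF1, a factor of lymphoid development, with medians of 1.005 FPKM in the T cell rich and 0.442 in the T cell poor tumours. BATF, a factor of activated T cells, had medians of 9.80 and 5.09 FPKM (log2 fold change 0.97 ± 0.33, adjusted limma p 0.432). ETS1 lay at medians of 41.1 and 30.4 FPKM (0.44 ± 0.22, adjusted limma p 0.903).

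**Figure D3:**
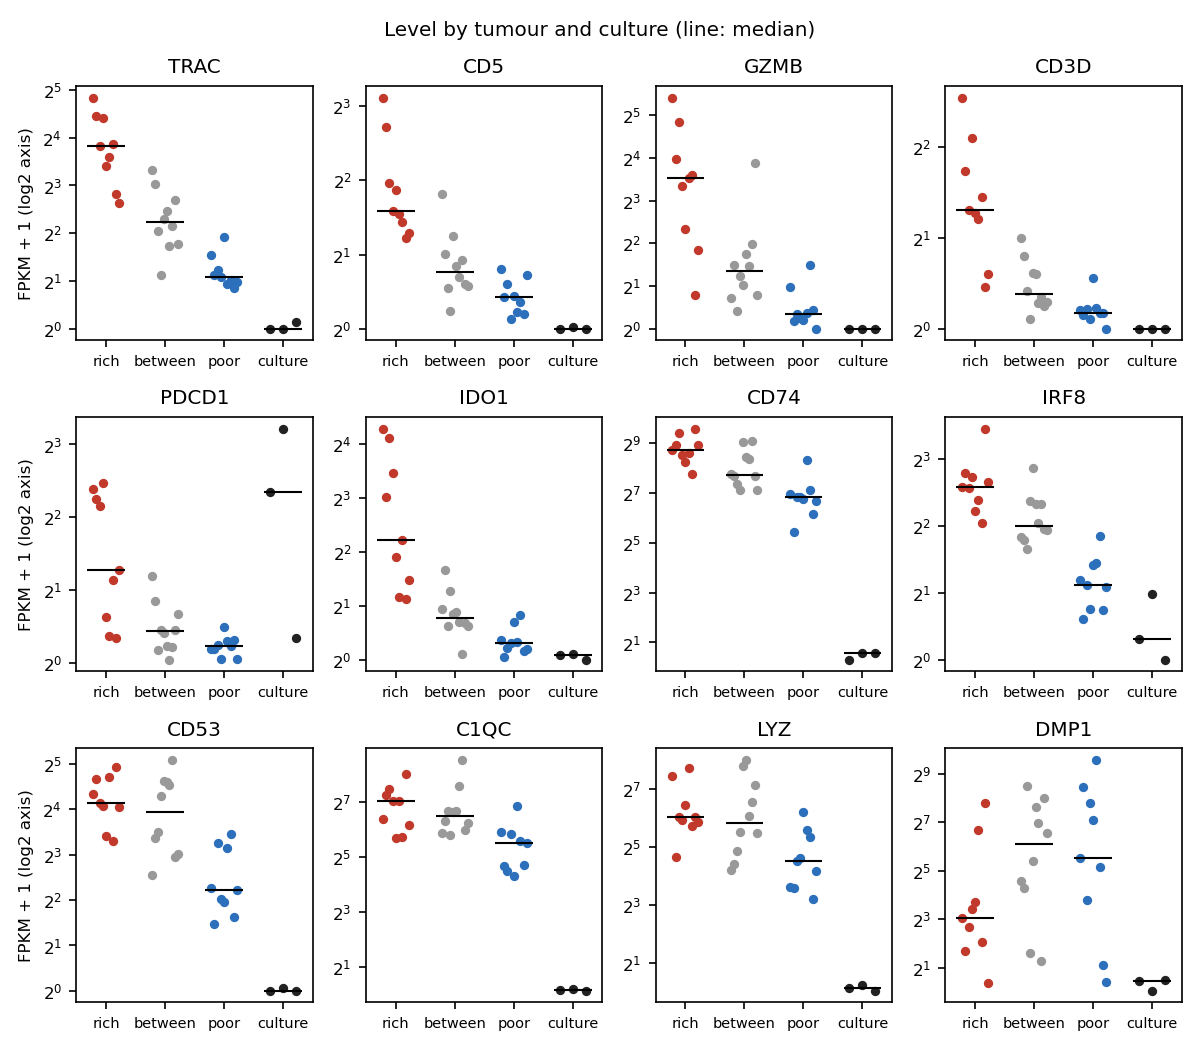
FPKM + 1 on a log2 axis for 12 genes, with 1 point per tumour or culture and a line at the median. TRAC, CD5, IDO1 and IRF8 separate the T cell rich from the T cell poor tumours without overlap, C1QC and LYZ overlap, DMP1 spreads widely in both groups, and PDCD1 is high in both osteosarcoma cell lines.

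GZMB and GZMK, both granzymes, had the 2 largest fold changes among the called genes with a symbol. GZMB, a protease of cytotoxic granules, lay between 0.743 and 41.5 FPKM in the T cell rich tumours (median 10.5) and between 0 and 1.80 in the T cell poor tumours (median 0.265), a log2 fold change of 2.82 ± 0.47 (adjusted limma p 0.00371). The groups overlapped, since 1 T cell rich tumour was below the highest T cell poor one, and 1 tumour between the groups, DOS.81, reached 13.7 FPKM. GZMK, a granzyme with trypsin-like activity, ranged from 1.04 to 43.4 FPKM (median 6.09) against 0 to 1.39 (median 0.477), a log2 fold change of 2.63 ± 0.46 (adjusted limma p 0.00682). GZMA ranged from 0.479 to 9.65 FPKM (median 4.31) against 0 to 0.236 (median 0.0920) without overlap, 2.03 ± 0.34 (adjusted limma p 0.00430).

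IL2RB, a receptor chain shared by interleukin 2 and interleukin 15, completed the 4 calls among 9 tested cytotoxic and natural killer genes, with medians of 1.38 and 0.142 FPKM (log2 fold change 0.98 ± 0.17, adjusted limma p 0.00570). The share called over all genes was 0.684%. GZMA is the 1 of the 4 that passed the filter only through the T cell rich tumours. FASLG, a death ligand of cytotoxic cells, did not pass (0.69 ± 0.16, adjusted limma p 0.0593), and KLRB1, a natural killer receptor, had medians of 0.177 FPKM and 0 (0.45 ± 0.20, adjusted limma p 0.826). The summed FPKM of this list spanned 9.10 to 91.8 in the T cell rich tumours and 2.498 to 8.54 in the T cell poor ones, without overlap. PRF1, NKG7 and IFNG could not be looked up by symbol and were not analysed here.

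Genes that restrain T cells rose in part. Of 8 tested checkpoint and costimulatory genes, 3 were called (IDO1, PDCD1LG2 and PDCD1), all higher, beside 0.684% of all genes. Of the 3, PDCD1 passed the filter only through the T cell rich tumours. IDO1 ranged from 1.20 to 18.5 FPKM in the T cell rich tumours (median 3.67), from 0.0784 to 2.18 between the groups, and from 0.0415 to 0.791 in the T cell poor tumours (median 0.234). The rich and poor tumours did not overlap, and the log2 fold change was 2.18 ± 0.39 (adjusted limma p 0.00694). PDCD1LG2, the PD-1 ligand PD-L2, also separated the groups, with 1.08 to 2.72 FPKM against 0.163 to 0.918 (0.85 ± 0.15, adjusted limma p 0.00694).

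PDCD1, which encodes PD-1 itself, ranged from 0.262 to 4.53 FPKM (median 1.43) in the T cell rich and from 0.0354 to 0.406 (median 0.167) in the T cell poor tumours, 1.22 ± 0.28 (adjusted limma p 0.0491). Its call ended in 15 of the 18 leave-one-out fits, with the highest adjusted limma p (0.118) without DOS.56. PDCD1 was at 4.105 FPKM in OSCA.8 and 8.31 FPKM in OSCA.78. The level in OSCA.78 was above that of all 28 tumours. CD2 and ZAP70 were near 0 in both lines. Whether all reads on this row come from PDCD1, and from which cells, was not tested, which limits what its values in the tumours show. LAG3, a further inhibitory receptor, had a lower median in the T cell rich (3.49 FPKM) than in the T cell poor tumours (4.797 FPKM), with a log2 fold change of 0.18 ± 0.33 (adjusted limma p 0.986). TIGIT (0.63, adjusted limma p 0.0866) and TNFRSF4 (1.07, 0.103) did not pass, and CTLA4 and CD274 could not be looked up by symbol.

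Of 7 tested chemokine and chemokine receptor genes 1 was called, beside 0.684% of all genes. It was CXCR6, a homing receptor of T cells in tissue. CXCR6 had 1.93 to 11.6 FPKM in T cell rich and 0.461 to 1.55 in T cell poor tumours, without overlap (1.24 ± 0.26, adjusted limma p 0.0214). Its call ended without DOS.100, DOS.116 or DOS.75 (highest adjusted limma p 0.0545). The ligand of CXCR6, CXCL16, had medians of 30.4 and 16.2 FPKM (0.79 ± 0.27, adjusted limma p 0.460). CXCL13, which attracts B cells, had medians of 0.701 and 0.0411 FPKM (0.83 ± 0.25, adjusted limma p 0.259). None of 11 tested lymphocyte cytokine and receptor genes was called, and IL6R came closest (0.71 ± 0.18, adjusted limma p 0.0835). At an unadjusted limma p below 0.05, 5 of the 11 were higher and 0 lower, beside 580 and 247 of all 14910 genes.

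Of the 5 tested genes of antigen presentation by MHC class II 3 were called, all higher, beside 0.684% of all genes. The median log2 fold change of the 5 was 1.23. CD74, by its median the most abundant of the 61 called genes with a symbol and the invariant chain that guides class II molecules, lay between 213 and 760 FPKM in the T cell rich tumours (median 419), between 136 and 534 between the groups (median 209), and between 42.2 and 314 in the T cell poor tumours (median 114). The groups overlapped, and the log2 fold change was 1.95 ± 0.31 (adjusted limma p 0.00210). CIITA, the transactivator of class II genes, had 1.46 to 5.67 FPKM against 0.387 to 1.20, without overlap (1.23 ± 0.19, adjusted limma p 0.00210). CTSS, a protease that trims the invariant chain, had medians of 100.6 and 35.1 FPKM (1.61 ± 0.37, adjusted limma p 0.0484), and its call ended in 14 leave-one-out fits. IFI30 and LGMN, the other 2 of the 5 tested, had log2 fold changes of -0.05 and -0.04, and the class II alpha and beta chains were not analysed here.

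Among 8 tested genes of class I presentation 1 was called, beside 0.684% of all genes. It was NLRC5, the transactivator of class I genes, with medians of 6.79 and 1.71 FPKM (1.21 ± 0.27, adjusted limma p 0.0372), a call that ended in 11 leave-one-out fits. The cultures also held NLRC5, at 3.92 FPKM in OSCA.8, 8.84 in OSCA.78 and 2.17 in CNOB, above the T cell poor median. The peptide transporter TAP1 (medians 41.1 and 17.2 FPKM, 0.87 ± 0.30, adjusted limma p 0.449) and the proteasome subunit PSMB10 (39.5 and 26.5 FPKM, 0.64 ± 0.24, adjusted limma p 0.598) did not pass.

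All 14 tested genes of the interferon gamma response had a positive fold change (50.5% of all genes), with a median of 0.76. Of the 14, 3 were called (0.684% of all genes). IRF8, a factor induced by interferon gamma and expressed in myeloid and B cells, had 3.13 to 9.94 FPKM against 0.521 to 2.61, without overlap (1.46 ± 0.21, adjusted limma p 0.00105). The interferon-induced GTPases GBP5 (medians 1.98 and 0.170 FPKM, 1.53 ± 0.29, adjusted limma p 0.0117) and GBP6 (3.18 and 0.370 FPKM, 1.46 ± 0.32, adjusted limma p 0.0316) were the others, and the call of GBP6 ended in 11 leave-one-out fits. In the type I interferon list none of 18 was called, and the smallest adjusted limma p was 0.261, for XAF1. At an unadjusted limma p below 0.05, 7 of the 18 were higher and 0 lower, beside 580 and 247 of all 14910 genes.

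**Figure D4:**
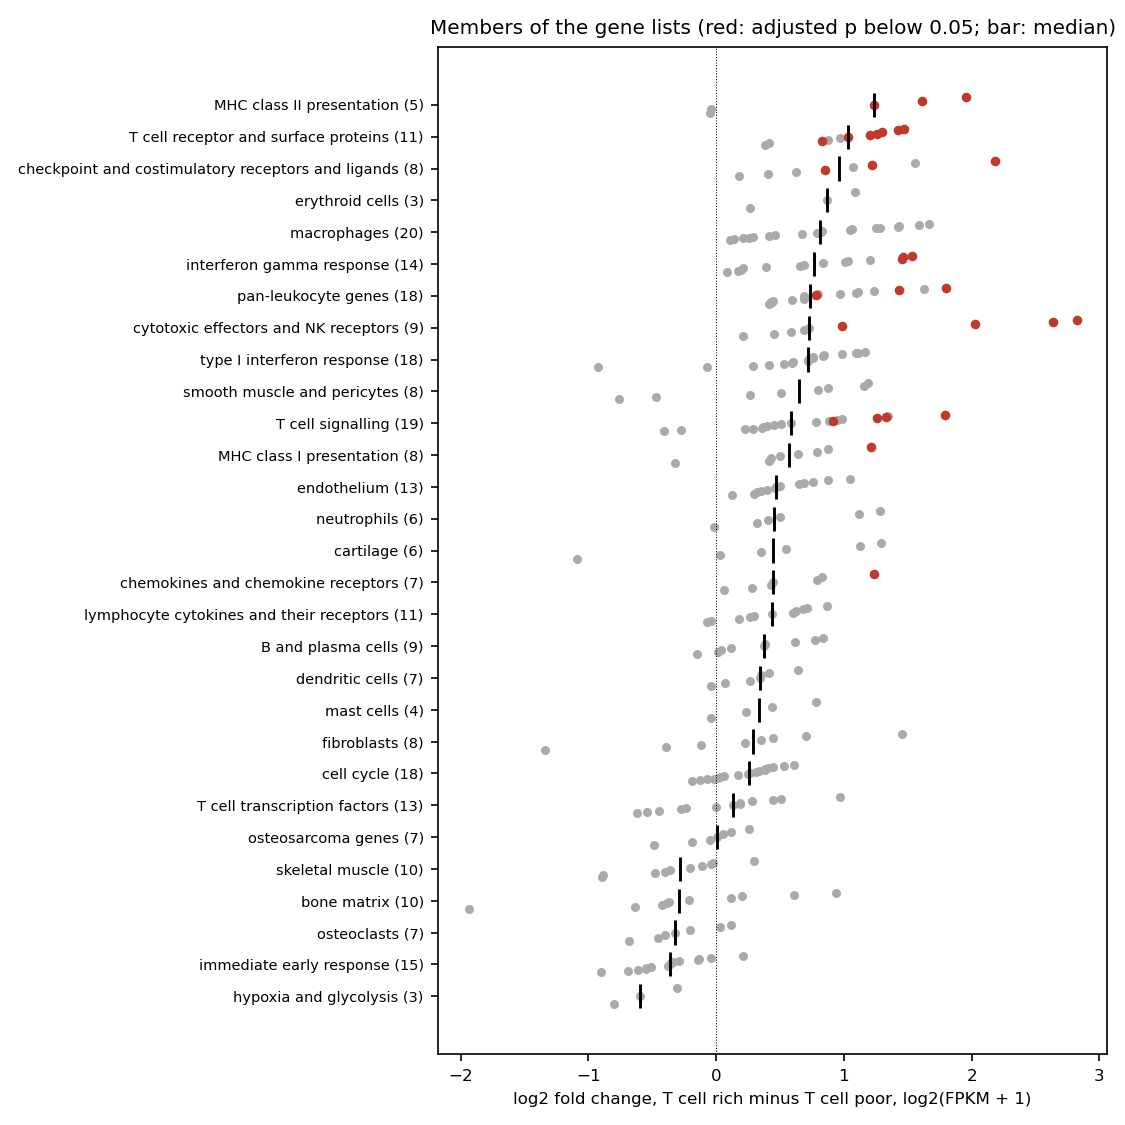
Log2 fold change (x axis, T cell rich minus T cell poor) of each tested member of the gene lists, in order of the list's median (bar); the number of tested members is in brackets. Called members, in red, occur in 9 lists, all of immune function, and every one lies to the right of 0.

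Genes that all white blood cells share were also higher in part. All 18 tested had a positive fold change (50.5% of all genes), with a median of 0.73, and 3 were called (0.684% of all genes). CD53, a membrane protein of leukocytes, had medians of 16.6 and 3.66 FPKM (1.80 ± 0.29, adjusted limma p 0.00321), but the tumours between the groups, with a median of 14.5 FPKM, were close to the T cell rich ones. CORO1A, an actin-binding protein, had 28.7 and 8.94 FPKM (1.43 ± 0.28, adjusted limma p 0.0144). ITGAL, an integrin chain of leukocytes, had 1.28 and 0.474 FPKM without overlap (0.78 ± 0.17, adjusted limma p 0.0355), and its call ended in 9 leave-one-out fits. PTPRC, which encodes the common leukocyte antigen CD45, had medians of 12.8 and 4.55 FPKM with overlap (1.24 ± 0.37, adjusted limma p 0.217).

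None of the 20 tested macrophage genes was called. At an unadjusted limma p below 0.05, 8 of them were higher and 0 lower, beside 580 and 247 of all 14910 genes. All 20 had a positive fold change (50.5% of all genes), with a median of 0.81. Their summed FPKM ranged from 506 to 1798 in the T cell rich tumours (median 951) and from 182 to 1422 in the T cell poor tumours (median 446). None of the 20 was at 0 throughout a group. C1QC, a complement chain made by macrophages, had medians of 131 and 45.0 FPKM (1.43 ± 0.36, adjusted limma p 0.0848), and LYZ, lysozyme, 64.1 and 21.7 FPKM (1.67 ± 0.42, adjusted limma p 0.0848). The general macrophage gene CD68 had a log2 fold change of 0.10. The mean log2 level of the list was lowest in DOS.100 (2.60) and DOS.116 (2.60), both T cell poor. Those 2 tumours are among the 5 whose removal lowered the number of calls most. The others of the 5 were at 4.86 (DOS.105), 4.64 (DOS.56) and 3.75 (DOS.75). Several of the called genes above, among them CD74, CTSS, IRF8 and CD53, are also expressed by macrophages, and the part of macrophages in these differences was not tested beyond the covariate fit.

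The lists of other cell types of a bone tumour held no called member, and called genes outside the lists are not counted here. B and plasma cell genes were tested for 9 of 17 in the table, with a median log2 fold change of 0.37 and the smallest adjusted limma p at 0.481, for MZB1. The T cell rich tumours had a summed B and plasma cell level of 6.06 to 33.4 FPKM and the T cell poor tumours 8.07 to 31.0. CD72, a receptor of B cells that is in no list, was called, with medians of 3.10 and 0.517 FPKM (1.32 ± 0.31, adjusted limma p 0.0483). Its call ended in 14 of 18 leave-one-out fits. Dendritic cells (7 tested, median 0.34), neutrophils (6, 0.45) and mast cells (4, 0.33) had no called member. Over all genes 0.684% were called, so lists this short may hold none without differing from other genes. All 13 endothelial genes had a positive fold change (median 0.47), beside 50.5% of all genes. None of the 13 was called, and their smallest adjusted limma p was 0.879.

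Genes of the tumour's own bone lineage were not called in either direction. Of 10 bone matrix genes 6 had a negative fold change, with a median of -0.29 and no unadjusted limma p below 0.05. DMP1, a phosphoprotein of osteocytes, showed the widest spread, with 0.306 to 223 FPKM in the T cell rich tumours (median 7.32) and 0.345 to 762 in the T cell poor ones (median 44.9). Its log2 fold change of -1.94 ± 1.27 had an adjusted limma p of 0.977. SP7, a transcription factor of osteoblasts, had medians of 49.7 and 56.9 FPKM (-0.42 ± 0.40, adjusted limma p 0.977). Osteoclast genes (7 tested, median -0.32), cartilage genes (6, 0.45), fibroblast genes (8, 0.29), cell cycle genes (18, 0.25) and known osteosarcoma genes (7, 0.00749) also had no call. With 0.684% of all genes called, the absence of calls in lists of this size does not set them apart. In the immediate early response 14 of 15 genes had a negative fold change (median -0.36), without an unadjusted limma p below 0.05. The share of all genes with a positive fold change was 50.5%.

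Several called genes outside the lists are known from lymphocytes. GIMAP4, a GTPase of T cells, had 2.51 to 12.4 FPKM in the T cell rich and 0.264 to 2.37 in the T cell poor tumours without overlap (1.97 ± 0.26, adjusted limma p 4.80e-04). TBC1D10C (carabin), which restrains calcineurin and Ras in lymphocytes, had 1.41 to 6.55 FPKM against 0.268 to 0.614, again without overlap (1.31 ± 0.19, adjusted limma p 0.00105). SASH3, a signalling adaptor of lymphocytes, had 4.48 to 13.4 FPKM against 0.860 to 4.12, without overlap (1.52 ± 0.23, adjusted limma p 0.00158). RARRES3, a retinoid- and interferon-responsive phospholipase, had medians of 13.4 and 3.02 FPKM (1.97 ± 0.36, adjusted limma p 0.00912), and DOS.76 reached 11.8 FPKM among the T cell poor tumours. The cultures also held RARRES3, at 4.11 FPKM in OSCA.8, 11.7 in OSCA.78 and 4.93 in CNOB, above the T cell poor median.

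CLEC12A, a C-type lectin of myeloid cells, had medians of 5.74 and 0.855 FPKM (1.68 ± 0.34, adjusted limma p 0.0174). CD5L, a protein secreted by macrophages, had 3.21 and 0.231 FPKM (1.71 ± 0.40, adjusted limma p 0.0491), with a call that ended in 15 of the 18 leave-one-out fits.

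No gene passed as lower in T cell rich tumours, and the smallest adjusted limma p in that direction was 0.144. It belonged to MBOAT2, an acyltransferase of membrane lipids, with 6.27 to 30.02 FPKM in the T cell rich (median 16.3) and 14.5 to 89.4 in the T cell poor tumours (median 32.1) and a log2 fold change of -1.05 ± 0.29. WISP3, a matricellular protein of the CCN family, had medians of 8.04 and 17.4 FPKM (-1.23 ± 0.34, adjusted limma p 0.146). VGF, a secreted neuropeptide precursor, had 0.242 and 0.934 FPKM (-0.71 ± 0.21, adjusted limma p 0.243). Leaving out 1 tumour gave at most 1 lower gene. It was MBOAT2 without DOS.76 (log2 fold change -1.19, adjusted limma p 0.0455) and ST8SIA1, a ganglioside synthase, without DOS.114 (-1.65, adjusted limma p 0.0474).

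The number of the 102 genes above the median of the 28 tumours ran from 72 (DOS.101) to 102 (DOS.105) in the T cell rich tumours, from 12 (DOS.46) to 91 (DOS.110) between the groups, and from 1 (DOS.116) to 31 (DOS.76) in the T cell poor tumours. The groups did not overlap on this count, which the choice of genes sets and which is given with no test. DOS.70, T cell rich mainly through CD2, had 84 of the 102 above the median and 6.05 FPKM of TRAC, the second lowest of its group. For 100 of the 102 genes the mean of the tumours between the groups lay between the means of the T cell rich and T cell poor tumours. The 10 tumours between the groups took no part in the test. The same score placed them there, and the genes were chosen by the difference between the outer groups. These means therefore carry no test either, and the share over all genes was not computed.

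**Figure D5:**
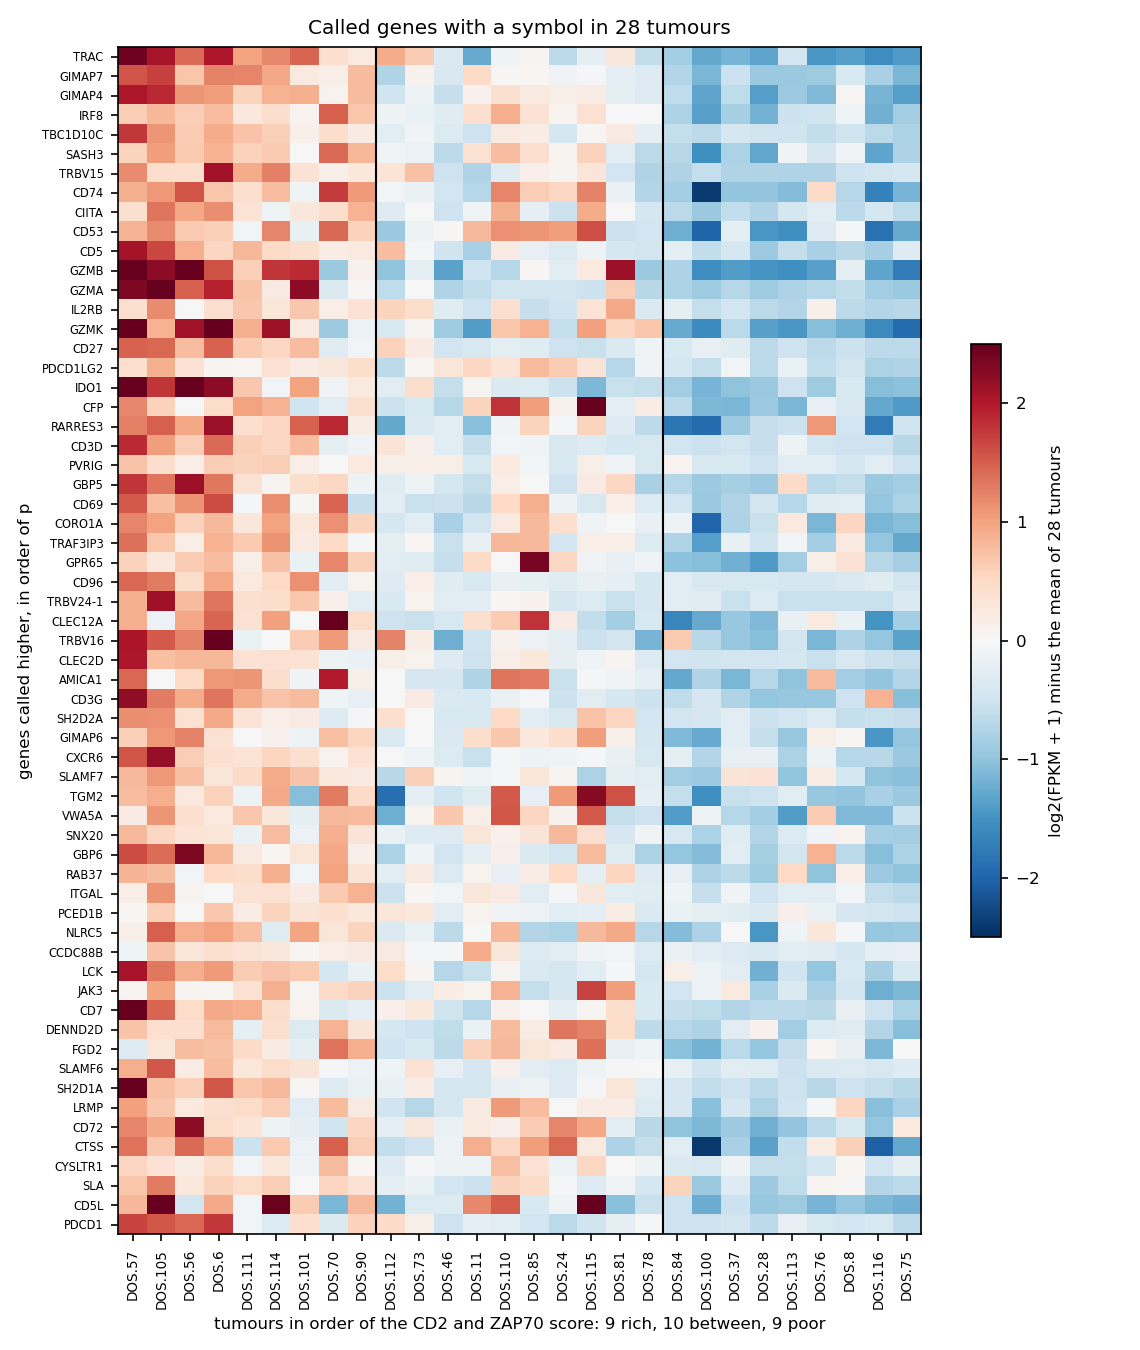
Log2(FPKM + 1) minus the mean of the 28 tumours for the 61 called genes with a symbol (rows, in order of p) in each tumour (columns, in order of the score), with lines between the groups. IDO1 is highest in DOS.57, DOS.56, DOS.6 and DOS.105, while DOS.70 is high for CLEC12A, CD74 and RARRES3 and low for GZMB and GZMK.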

How the data were processed

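RNA sequencing of total RNA (TruSeq RNA v2 kit, per the labels) gave 34 dog libraries. The authors deposited 1 table of 23988 rows, whose header names no unit. These values, as deposited by the authors, were read as FPKM, the unit that Cufflinks gives. FastQC 0.11.2, TopHat2 2.0.13 and Cufflinks 2.2.1 are named with canFam3, the dog genome build, per the submitters' processing notes. Settings and annotation are not known here. Of the rows 14311 carry a symbol, 9653 only an Ensembl identifier and 24 a bare number. A reference table of another build held 13111 of the symbols, and no coordinates were taken from it.

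Columns of primary tumours were averaged and grouped as the report describes, with a pseudocount of 1 FPKM. Genes with at least 1 FPKM in at least 2 of 28 tumours (14912, less CD2 and ZAP70) entered limma 3.58.1 in R 4.3.3 (lmFit, then eBayes with its trend and its robust option, tested two-sided with Benjamini-Hochberg adjustment at 0.05) over the 18 tumours, after a check on simulated data. Read depth is unknown, so no counting interval was computed. A relative depth came from ratios between libraries of values under 0.3 FPKM, taken as ratios of whole numbers no larger than 6, with a log2 tolerance of 0.02.

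The tumours, score and 29 gene lists were chosen with earlier results of these data known. Named genes are the 10 of smallest p and the 10 of largest fold change among called genes with a symbol, the 3 of smallest p where a direction had no call, the 3 of smallest p in each list, and members of the T cell lists. PTPRC, CD68, IFI30, LGMN, TIGIT, TNFRSF4, LAG3, FASLG, KLRB1, CLEC12A, CD5L, CD72, TRDC, TRBV24-1, ST8SIA1 and 1 row with no symbol were named after their values were seen. TRAV24, TRDV2 and TRAV34 were also named after their values were seen. Other pseudocounts, filters, scalings, group definitions, covariates and left-out tumours were tried. Tables and plots were made in Python 3.11.15 with numpy 2.4.6, matplotlib 3.10.9 and pandas 2.3.3.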

Additional observations from a re-analysis of the deposited data

Results flagged for a closer look

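Of 196 groups of 9 tumours examined for the named genes, 18 held a tumour whose gap to its nearest neighbour, divided by the group's range of log2(FPKM + 1), exceeded Dixon's critical value of 0.493. Chance gives about 5%, or 9.8 such groups.

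Among genes that were called, the T cell poor tumours held most of these. DOS.76 stood above the other T cell poor tumours for RARRES3 (11.8 FPKM, next 3.35) and GBP6 (3.34 FPKM, next 0.940). DOS.113 stood above them for CD3D (0.475 FPKM, next 0.171) and GBP5 (1.90 FPKM, next 0.379). DOS.84 stood above them for the beta chain segment TRBV16 (2.97 FPKM, next 0.842). In the T cell rich tumours DOS.105 was highest for PDCD1LG2 (2.72 FPKM, next 1.73).

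Among genes that were not called, DOS.28 was far above the other T cell poor tumours for MDM2, which encodes the ubiquitin ligase of p53 (487 FPKM, next 53.4), for the skeletal muscle genes MYLPF (78.3 FPKM, next 4.15) and TNNT1 (9.36 FPKM, next 0.888), and for EPB42 of red cells (0.124 FPKM, next 0.0311). DOS.113 was highest for the vessel genes EGFL7 (86.1 FPKM, next 29.1) and RGS5 (115 FPKM, next 22.5). DOS.8 was highest for CSF3R, a neutrophil receptor (3.002 FPKM, next 0.787), and MCM6, a replication factor (126 FPKM, next 59.5). DOS.76 was highest for CXCL13 (0.440 FPKM, next 0.138). In the T cell rich tumours DOS.114 was highest for PADI4 of neutrophils (2.54 FPKM, next 0.674), DOS.6 was highest for KLF6 (93.7 FPKM, next 43.9), and DOS.101 was lowest for KCNMB1 of smooth muscle (0.980 FPKM, next 9.20).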

How the results depend on the processing

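Each fit gave a number of genes called higher (102 in the report) and a number of called members of the 3 T cell lists (11 in the report). They were 66 and 4 with a mean log2 level of at least 1, 17 and 3 for the 14 highest against the 14 lowest tumours, 43 and 2 with groups by CD2 alone, 1 and 1 with groups by ZAP70 alone, and 66 and 7 with the averaged libraries left out. They were 25 and 4 with the macrophage list as a covariate, and 141 and 17 with the score as a continuous term. Chosen after seeing the data, the relative depth as a covariate gave 24 and 2, and leaving out DOS.113 and DOS.28 gave 45 and 4. Averaging DOS.56 and DOS.57 into 1 tumour, also chosen after seeing the data, gave 77 and 9. The filter tests fewer genes, and the other causes were not tested. Groups by CD2 alone share 8 T cell rich and 9 T cell poor tumours with the rule, and groups by ZAP70 alone 7 and 6. The other settings gave 87 to 125 higher genes. No setting gave a lower gene except 2 of 18 leave-one-out fits. Leaving out 1 tumour gave 61 to 118 higher genes, 0 to 1 lower genes and 5 to 12 T cell list members, and 59 of the 102 genes were called in all 18.

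All 102 kept a positive change wherever tested (75 of 75 under the stricter filter), which their choice in largely the same tumours favours. Log2 fold changes of uncalled genes that changed sign for 14 against 14 were S100A9 -0.0065, SP7 0.147, VCAM1 -0.0308, MYLPF 0.231 and TNNT1 0.288. With groups by ZAP70 alone they were LOX -0.338 and TEK -0.240. MDM2, at -0.19 in the report, was 0.0288 with the depth covariate, 0.227 without DOS.113 and DOS.28, and -0.288 to 0.210 when 1 tumour was left out, with the positive value without DOS.28. No paired analysis was possible because the labels give no replicate numbers and the groups come from the score. Depth limits low values, and 1 fragment in DOS.113 is worth 2.05 times that in the median library.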

Other observations

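The metastasis DOS.6M took no part in any comparison. CD2 was at 9.59 FPKM and ZAP70 at 5.44 FPKM there, a score of 3.05. Of the 102 genes called higher, 94 were above the median of the 28 primary tumours. The share of all genes above that median in DOS.6M was not computed. The 102 were chosen through a score that is itself high in DOS.6M, so the count carries no test. DOS.6, a T cell rich tumour that shares its title number, scored 2.75. With 1 metastasis, these values have no replicate.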
